A study of Mus musculus with 36 samples.

Results

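The genes described here are 6 keratins and 3 epithelial adhesion genes measured in fibroblasts: the simple-epithelial keratins Krt8, Krt18, Krt19 and Krt7, the basal-layer keratins Krt5 and Krt14, and Epcam, Cdh1 and Perp. They were chosen by name, with results of the same arrays already known, so the levels that may have led to the choice are given as a description. Every probe set annotated to exactly 1 symbol, that symbol being 1 of the 9, was taken. This gave 14 of 35041 such probe sets, and the 9 genes are 9 of 18193 measured genes. Krt8 and Krt14 had 3 probe sets each, Epcam had 2 and the others had 1. A further probe set, annotated to both Krt17 and Krt14, was left out.

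The libraries came from primary fibroblasts of fetal CD1 mice taken 19 days after conception. Cells of cornea, skin or tendon were grown for several doublings, seeded on gelatin-coated glass and kept for 14 h in low-serum medium, either in a still dish (static) or in a parallel plate chamber (flow) at a wall shear stress of 0.1 dyn per cm2. The 6 groups, static and flow for each tissue, held 3 libraries each, and each of the 18 libraries was hybridised to a pair of arrays (36 in all). All groups shared the mouse stock, the age, the gelatin coat and the time in culture, and flow also differed from static by the chamber itself. The design text calls the libraries biological replicates; whether they came from separate litters is not given in the sources used here. The titles, source names and scanner records of the 3 tendon flow libraries name tendon, while their descriptions name cornea. They were analysed as tendon, and the flow averages of Krt19 and Krt18 are also given without them. Other results that rest on them are given with them only.

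Keratins are the intermediate filaments of epithelial cells and are built as pairs of an acidic type I chain and a basic type II chain. Krt8 (type II) and Krt18 (type I) form the filaments of single-layered epithelia, Krt7 and Krt19 are their type II and type I counterparts in ducts and glands, and Krt5 with Krt14 make up the filaments of basal keratinocytes. Krt19 is also known outside epithelia, from striated muscle. Cdh1 is E-cadherin of the adherens junction, Epcam is a homophilic epithelial adhesion molecule, and Perp is a membrane protein of the desmosome and a target gene of p53 and p63. In the RefSeq gene table of GRCm38.p6, Krt5, Krt7, Krt8 and Krt18 lie together in the type II keratin cluster although Krt18 is a type I chain, and Krt14 and Krt19 lie in the type I cluster.

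Levels are log2 values from robust multi-array averaging (RMA), in which 1 unit is a doubling of probe brightness; levels of different probe sets cannot be set against each other. The fibroblast genes used to check the labelled cell type were measured in every library: Col1a1 lay between 11.95 and 12.71, Col1a2 between 13.39 and 13.94, Col3a1 between 11.66 and 12.96, Vim (vimentin, the mesenchymal intermediate filament) between 13.23 and 13.64, and Pdgfrb between 10.0 and 11.33; the median probe set of that chip read 7.25. Among epithelial genes, Cdh1 lay between 3.50 and 4.03, Krt12 of the corneal epithelium between 5.02 and 5.66, Trp63 of basal keratinocytes between 5.30 and 5.70, and the epithelial splicing factor Esrp1 between 5.37 and 5.93. Others read higher: the epithelial transcription factor Grhl2 lay between 7.90 and 8.41, Jup between 7.99 and 8.50, Pkp2 between 7.65 and 9.88 and Klf5 between 7.21 and 9.66. Since brightness also depends on the probes, these values do not rank the genes by amount of RNA. Of the 9 genes, 4 (Krt19, Krt8, Krt5 and Perp) had a group mean above the median of the chip, and 5 of the 14 probe sets did. For Krt19 the highest group mean was that of static cornea (7.76). All its skin and tendon libraries (6.06 to 6.97) read below the median of 7.25. In these bulk cultures, fewer cells that express a gene and less RNA per cell cannot be told apart.

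**Figure D1:**
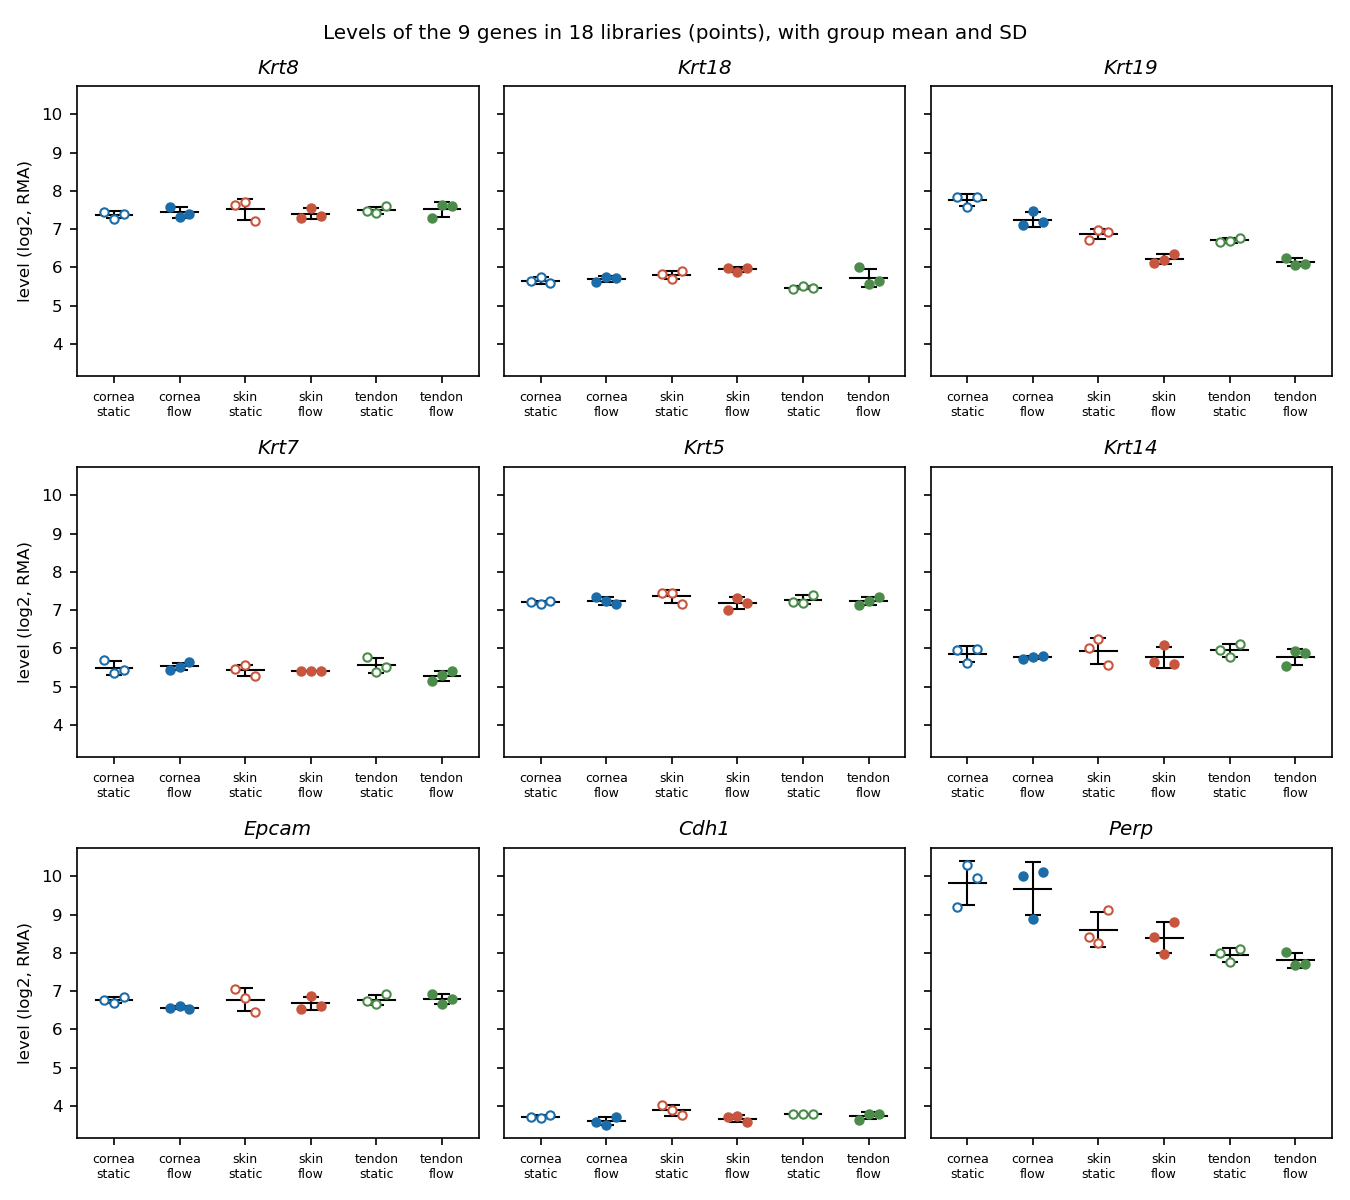
Each panel shows 1 gene, with its log2 RMA level on the y axis and the 6 groups on the x axis; points are the 3 libraries of a group (open for static, filled for flow), and the bars give the group mean and SD. Krt19 and Perp ranged over 1.79 and 2.64 log2 units, while no other gene ranged over more than 0.70.

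Krt19 and Perp differed between groups, and the other 7 genes stayed within narrow bands. Over the 18 libraries Krt19 ranged over 1.79 and Perp over 2.64 log2 units, against 0.46 (Krt5) to 0.70 (Krt14) for the other 7. Krt19 was higher in corneal than in skin or tendon fibroblasts; Perp was higher in cornea than in tendon, and its corneal and skin libraries overlapped (1.22 in static cells, adjusted p = 0.067, limma, not called). Krt19 was also lower under flow in all 3 tissues, while Perp was not called for flow.

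Krt19 is the type I keratin that lacks most of the tail domain of its relatives. In static cornea its 3 libraries read 7.85, 7.58 and 7.85, and in cornea under flow 7.10, 7.47 and 7.19. Static skin read 6.73, 6.97 and 6.94, and skin under flow 6.11, 6.19 and 6.35. Static tendon read 6.66, 6.70 and 6.78, and tendon under flow 6.26, 6.06 and 6.09. Every flow library lay below every static library of its own tissue, and all 6 corneal libraries lay above the 12 others. A gap of the first kind in all 3 tissues was seen for 19 of the 18193 genes (0.104%), and one of the second kind for 123 (0.676%). The order of the group means was static cornea (7.76 ± 0.15, SD, n = 3), cornea under flow (7.25 ± 0.20), static skin (6.88 ± 0.13), static tendon (6.71 ± 0.06), skin under flow (6.22 ± 0.12) and tendon under flow (6.14 ± 0.11). Static skin and static tendon overlapped, as did skin and tendon under flow.

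The flow comparison asked whether a low shear stress changed the level of each gene. Because the flow difference may have led to the choice of these genes, the adjusted p-values below describe where a gene falls in the fit of all genes and are no independent test. Averaged over the 3 tissues, Krt19 fell by 0.58 on the log2 scale (SE 0.07, 95% interval -0.73 to -0.43), that is 1.49-fold lower under flow, with an adjusted p of 0.00043 in limma's moderated test across all genes. It was 1 of 163 genes called (0.896% of those tested) and 1 of the 48 called lower (0.264%), and it was the 1 of the 9 genes that was called. The sample date of the scanner records was then taken as a block, with undated libraries of a tissue forming 1 block. That flow average called 1273 genes (7.0%), Krt19 again being the 1 of the 9 (-0.58, SE 0.06, adjusted p = 0.00029, limma). Without the 3 tendon flow libraries, the average over cornea and skin was -0.58 (SE 0.09, adjusted p = 0.014, limma). The differences were alike in size: -0.57 in tendon, -0.51 in cornea and -0.66 in skin (SE 0.12 each). The test of a difference in response between tissues called no gene at all (0.0% of 18193 tested) and gave an unadjusted p of 0.66 for Krt19; at an unadjusted p below 0.05 it held 142 genes, 0 of them among the 9 (limma).

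Within a single tissue none of the 9 genes was called by limma, where the shares of all genes called were 0.0605% for tendon, 0.022% for cornea and 0.0275% for skin. An unadjusted p below 0.05 (limma) was seen for 3 of the 9 in tendon, 1 in cornea and 2 in skin. Of all 18193 genes, 794, 980 and 547 had one. For Krt19 the adjusted p was 0.15 in tendon, 0.29 in cornea and 0.096 in skin (limma). The scanner records give a sample date for 13 libraries and none for the other 5. Static and flow libraries of a tissue were paired by that date, and undated ones within their tissue. This gave 8 pairs, of which those of skin replicate 1 and tendon replicate 1 rest on no recorded date. With these pairs as a block (the block by date), Krt19 was called in tendon (-0.57, SE 0.10, adjusted p = 0.022, limma) and in skin (-0.66, SE 0.10, adjusted p = 0.013, limma). In cornea, with 2 such pairs, the adjusted p was 0.13 (limma). That fit called 1.21% of all genes in tendon, 0.363% in skin and 0.33% in cornea, more than the fit without the date. All 8 pairs showed a lower Krt19 level under flow, with differences of -0.78 to -0.37 and a median of -0.63. The 5 undated libraries were taken as a first batch and the 13 dated ones as a second, without use of the scan day. Krt19 under flow minus static was -0.39 and -0.62 in the first batch for tendon and skin. In the second it was -0.66, -0.68 and -0.43 for tendon, skin and cornea. The signal of the 3′ over the 5′ probe sets of the control genes, a sign of RNA or labelling quality, was on average higher under flow by 0.10 for Gapdh and 0.21 for beta-actin on the same chip (log2); its part in the result was not tested.

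**Figure D2:**
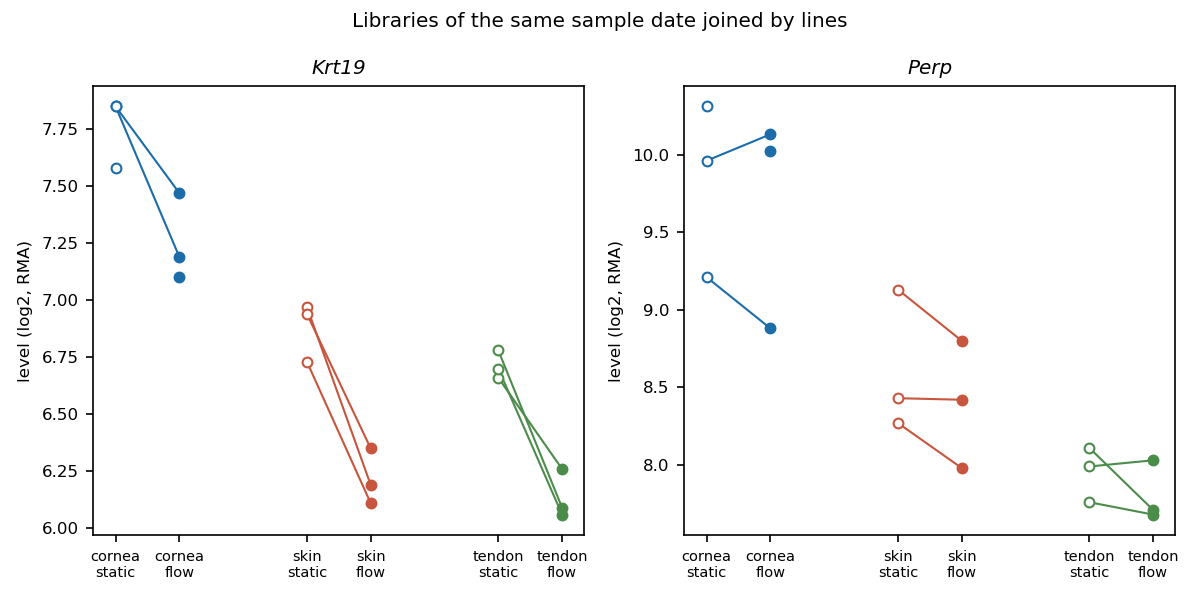
Log2 RMA levels (y axis) of Krt19 (left) and Perp (right) in static (open) and flow (filled) libraries of each tissue on the x axis. Lines join the 8 pairs of libraries, by sample date or, for replicate 1 of skin and tendon, by tissue among undated libraries. Unjoined points have no partner. All 8 Krt19 lines fall, by 0.37 to 0.78, while 6 of 8 Perp lines fall and their differences run from -0.40 to 0.17.

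The tissue difference of Krt19 was of about the size of a doubling and was there in both states. Static cornea exceeded static skin by 0.88 (1.84-fold) and static tendon by 1.05 (2.07-fold), with SE 0.12. Under flow the differences were 1.04 and 1.11. Tendon and skin differed by -0.17 (95% interval -0.42 to 0.09) in static cells and by -0.08 under flow. The same differences within the batches of undated and dated libraries were 0.80 to 1.06 against skin and 0.84 to 1.25 against tendon.

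Perp gave the widest range of the 9 genes. In static cornea it read 9.21, 10.31 and 9.96, in cornea under flow 10.02, 8.88 and 10.13, in static skin 8.43, 8.27 and 9.13, and in skin under flow 8.42, 7.98 and 8.80. Static tendon read 7.99, 7.76 and 8.11, and tendon under flow 8.03, 7.68 and 7.71. The order of the means was therefore cornea (9.83 ± 0.57 static, 9.68 ± 0.69 flow), skin (8.61 ± 0.46 and 8.40 ± 0.41) and tendon (7.95 ± 0.18 and 7.81 ± 0.20, SD, n = 3). Static and flow libraries overlapped in each tissue, every corneal library lay above every tendon library, and corneal and skin libraries overlapped. Static cornea exceeded static tendon by 1.87 (SE 0.33), or 3.66-fold, and static skin by 1.22 (SE 0.33), or 2.33-fold; under flow the differences were 1.87 and 1.28.

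For Perp, the libraries of a pair kept together in cornea and skin but not in tendon. In cornea the lowest static library (9.21) and the lowest flow library (8.88) share a date, and the mean of that pair lay 1.00 below that of the other corneal pair (9.05 against 10.05). In skin the pair means ranged over 0.84, from 8.12 to 8.96. In tendon they ranged over 0.29, less than the difference of 0.40 within the pair of replicate 3 (8.11 static, 7.71 flow), and a corneal library of each state has no partner. Flow minus static within the pairs ran from -0.40 to 0.17. The flow difference averaged over tissues was -0.17 (SE 0.19, 95% interval -0.57 to 0.24, adjusted p = 0.77, limma), and with the date as a block it was -0.14 (SE 0.08, adjusted p = 0.29). The spread between corneal libraries (SD 0.57 static and 0.69 flow) was wider than the flow difference in cornea (-0.15, SE 0.33). That difference changed sign without cornea static replicate 2 (0.10) or cornea flow replicate 2 (0.25).

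Counted over all 9 genes, limma called Krt19 between cornea and skin and both Krt19 and Perp between cornea and tendon, in static cells and again under flow. None was called between tendon and skin. There 1 gene (static) and 0 (flow) had an unadjusted p below 0.05 (limma), beside 1695 and 1204 of all 18193 genes. The shares of all genes called in static cells were 2.47% for cornea and skin, 2.44% for cornea and tendon and 1.32% for tendon and skin. Under flow they were 1.91%, 1.69% and 1.06%. Because the 9 genes may have been picked for these differences, nothing is read from those counts. Perp between static cornea and skin lay near the threshold (adjusted p = 0.067), and with the sample date as a random block it was called in static cells (1.26, adjusted p = 0.020) and under flow (1.35, adjusted p = 0.014, limma), a fit that called 2.89% and 2.36% of all genes.

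**Figure D3:**
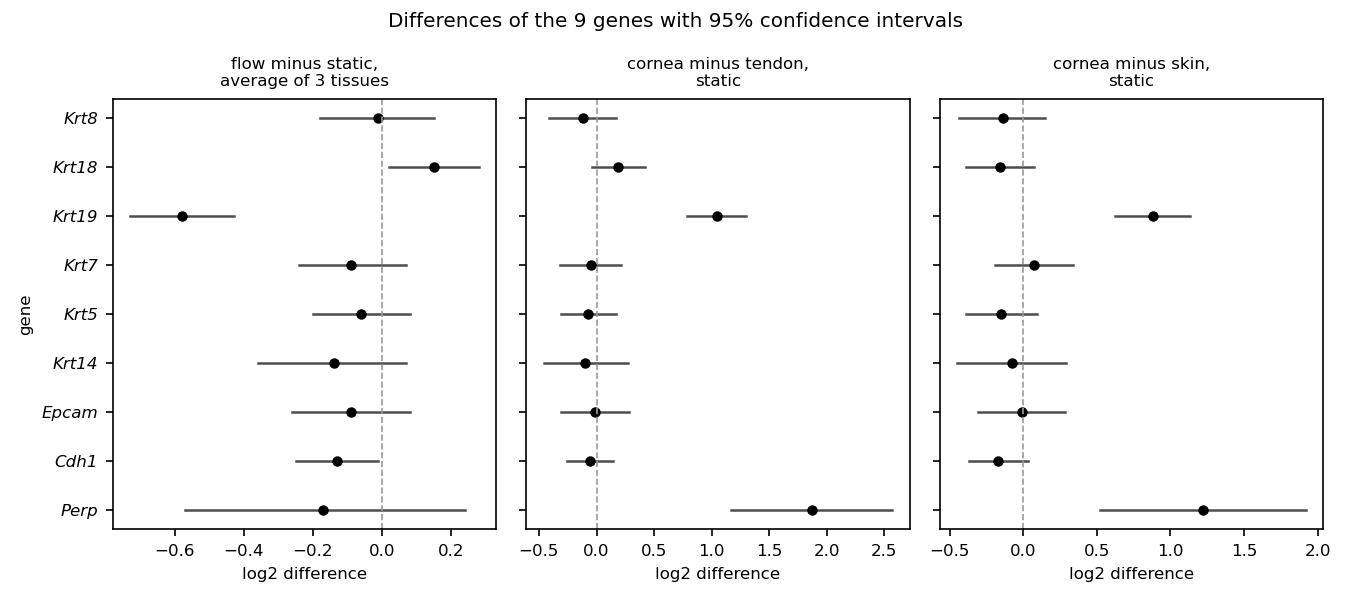
Log2 differences (x axis) of the 9 genes (y axis) with 95% confidence intervals from limma: flow minus static averaged over the 3 tissues, static cornea minus tendon, and static cornea minus skin. Krt19 stands at -0.58 in the first panel, and Krt19 and Perp stand at 1.05 and 1.87 in the second and 0.88 and 1.22 in the third, with the other 7 genes between -0.17 and 0.19.

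The partners with which Krt19 can pair did not share its pattern. Krt8 read 7.28 to 7.46 in static cornea, 7.32 to 7.59 in cornea under flow, 7.22 to 7.72 in static skin, 7.30 to 7.56 in skin under flow, 7.42 to 7.60 in static tendon and 7.30 to 7.64 in tendon under flow, so all 6 groups overlapped. Its flow difference was -0.01 (95% interval -0.18 to 0.15), and static cornea differed from static tendon by -0.12 (-0.41 to 0.17). The other Krt8 probe sets read 5.10 to 5.61 and 5.82 to 6.24, both with names that mark possible cross-hybridisation. Krt7, the ductal type II keratin, read 5.14 to 5.77 over all libraries with a flow difference of -0.09 (-0.24 to 0.07); in tendon alone its difference was -0.27 (-0.53 to -0.01), with groups that overlapped.

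Krt18, the usual partner of Krt8, moved the other way from Krt19 and by less. Its static and flow means were 5.66 and 5.70 in cornea, 5.81 and 5.95 in skin, and 5.47 and 5.73 in tendon. All 8 pairs read higher under flow, by 0.06 to 0.56, the widest being the undated pair of tendon replicate 1 (5.43 to 6.00). The average difference was 0.15 (SE 0.06, 95% interval 0.02 to 0.28), which did not pass the adjustment over all genes (adjusted p = 0.37, limma) and was 0.09 (SE 0.07) without the tendon flow libraries. In tendon the 3 flow libraries (6.00, 5.57 and 5.64) lay above the 3 static ones (5.43, 5.51 and 5.46), a gap that 4.71% of all genes showed there. Static tendon lay 0.35 below static skin (95% interval -0.58 to -0.12), which was not called either. The Krt18 levels were below the chip median in every library.

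The basal-layer pair Krt5 and Krt14 showed no group pattern. Krt5 read 7.01 to 7.46 over the 18 libraries, with a flow difference of -0.06 (95% interval -0.20 to 0.08). Krt14 read 5.54 to 6.24, with a flow difference of -0.14 (-0.36 to 0.07), and its other probe sets read 5.44 to 6.17 and 4.91 to 5.50 with differences of -0.07 and -0.13. Skin libraries spread most for Krt14 (6.01, 6.24 and 5.58 in static skin), and static skin replicate 3 was also the lowest skin library for Krt8 (7.22) and the lowest of all 18 for Epcam (6.46). The mean of 42 other keratins was also lowest of the skin libraries in static skin replicate 3, at 6.14 against 6.34 and 6.42 in the other static skin libraries.

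Epcam and Cdh1, the epithelial adhesion molecules proper, ranged over 0.60 and 0.53 and were called in no comparison. Epcam read 6.46 to 7.06 on chip A, with a flow difference of -0.09 (95% interval -0.26 to 0.08). In cornea its flow libraries (6.56, 6.62 and 6.54) lay below its static ones (6.76, 6.69 and 6.86), a gap that 4.43% of all genes showed there. Its chip B probe set read far brighter, 10.27 to 10.70 against a chip median of 5.95, with a flow difference of 0.05 (SE 0.05); its name marks possible cross-hybridisation, and the probe sets disagree on whether Epcam is above the middle of the chip. Cdh1 read 3.50 to 4.03 and was lower under flow in 7 of 8 pairs, with a difference of -0.13 (-0.25 to -0.01) that did not pass the adjustment (adjusted p = 0.38, limma). Its skin libraries did not overlap (static 4.03, 3.89 and 3.76, flow 3.72, 3.73 and 3.57), a gap that 3.73% of all genes showed in skin. Across the 7 genes other than Krt19 and Perp, the flow differences ran from -0.14 to 0.15. An unadjusted p below 0.05 (limma) was seen for 2 of them (Krt18 and Cdh1), beside 2045 of all 18193 genes. The median flow difference of the 9 genes was -0.09, beside -0.01 over all genes.

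The wider epithelial programme was listed as 108 companion genes: other keratins, junction and adhesion genes, epithelial proteases, trafficking and splicing genes, and epithelial transcription factors. Of the 104 measured, none was called by limma for flow averaged over tissues, where 0.896% of all genes were called. The median difference of the 104 was -0.06 against -0.01 over all genes. An unadjusted p below 0.05 (limma) was seen for 5 of them, beside 2045 of all 18193 genes. With the sample date as a block, 1 of the 104 was called, Klf4 (-0.25, SE 0.06, adjusted p = 0.038, limma), where 7.0% of all genes were; Klf4 is a transcription factor of epithelial differentiation, named after its value was seen. Between static cornea and skin, 1 was higher (Macc1, 0.46) and 1 was lower (Krt20, -0.54). Between static cornea and tendon, 2 were higher (Macc1, 0.81, and Pkp2, 1.37) and 1 was lower (Krt20, -0.69). Between static tendon and skin none was called, and 6 had an unadjusted p below 0.05 (limma), beside 1695 of all 18193 genes. Macc1 (2.97 to 3.97) and Krt20 (5.84 to 6.71), a keratin of gut and urothelium, were among dim probe sets.

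Most of these genes ranged narrowly, although a narrow range does not mean no difference: Krt20, called in both corneal comparisons, ranged over 0.87. The companions' calls of 2 and 3 of 104 in those comparisons stand beside 2.47% and 2.44% of all genes. A range over 1 log2 unit across the 18 libraries was seen in 7 of the 104 companions (6.73%), against 26.5% of all genes. None of the 42 other keratins ranged that far. Among the mesenchymal regulators 11 of 15 did, and among fibroblast genes 8 of 13. The companions' mean level per library lay between 6.28 and 6.55 in all 6 groups. That of the mesenchymal regulators was 9.66 to 10.09 and that of the fibroblast genes 10.95 to 11.75. The lists thus differed in brightness, and its part in the ranges was not tested.

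**Figure D4:**
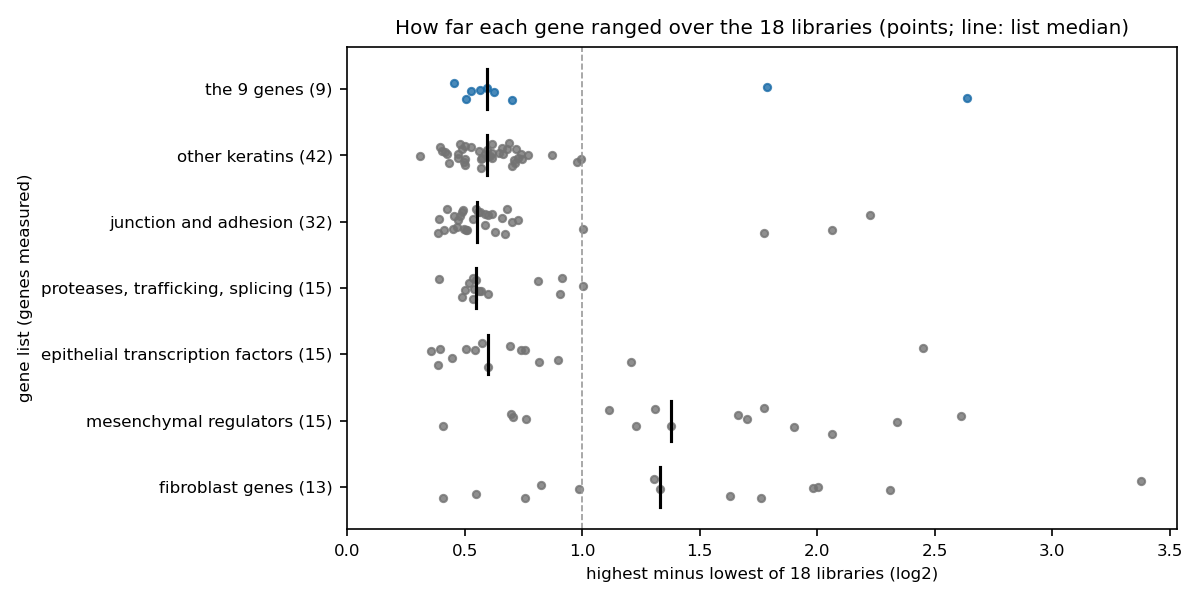
Each point is 1 gene placed by the difference between its highest and lowest library (x axis, log2) within its list (y axis, with the number of genes measured); black lines are list medians and the dashed line marks 1 log2 unit. Among the 9 genes, Krt19 (1.79) and Perp (2.64) lie beyond that line, and 0 of 42 other keratins do.

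The junction genes that did vary included Pkp2 and Dsp of the desmosome, the structure in which Perp sits. Other desmosomal genes of that list ranged over less than 1 log2 unit: Pkp1 (0.597), Pkp3 (0.725), Dsg2 (0.491), Dsc2 (0.451), Dsc3 (0.558) and Jup (0.511). Pkp2 (plakophilin 2, a plaque protein that links desmosomal cadherins to desmoplakin) had means of 9.36 ± 0.51 and 9.41 ± 0.46 (static and flow, SD, n = 3) in cornea, 8.67 ± 0.40 and 8.48 ± 0.28 in skin, and 7.99 ± 0.36 and 8.0 ± 0.28 in tendon, the same order as Perp. Its static cornea libraries (9.80, 9.48 and 8.81) lay above the static tendon libraries (7.65, 8.37 and 7.96), a difference of 1.37 (SE 0.28, adjusted p = 0.013, limma). A further Pkp2 probe set gave 1.43 and others gave 0.36 and 0.17. Its flow difference was -0.05 (95% interval -0.39 to 0.30).

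Dsp (desmoplakin, which ties keratin filaments to the plaque) had means of 6.82 ± 0.57 and 6.94 ± 0.82 in cornea, 5.80 ± 0.45 and 6.05 ± 0.42 in skin, and 6.29 ± 0.33 and 6.63 ± 0.41 in tendon, and no difference of it was called; static cornea exceeded static skin by 1.02 (SE 0.38, adjusted p = 0.25, limma). It read higher under flow in 7 of 8 pairs (-0.29 to 0.79), with an average difference of 0.28 (SE 0.10, adjusted p = 0.11, limma) with the date as a block. Without the block that difference was 0.24 (SE 0.22). Other Dsp probe sets gave 0.18 and -0.09 for flow without the block, and 0.75 and -0.01 for static cornea minus skin. The lowest corneal libraries of Dsp were static replicate 1 (6.29) and flow replicate 2 (6.00), the same date on which corneal Perp was lowest. For Pkp2 those libraries were the highest of the cornea (9.80 and 9.88), so on that date Dsp was low together with Perp and Pkp2 was high. Jup (plakoglobin) stayed between 7.99 and 8.50. F11r, a tight junction adhesion molecule, was lower in cornea than in skin under flow (-1.08, SE 0.22, adjusted p = 0.013, limma), and its second probe set gave -0.12.

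**Figure D5:**
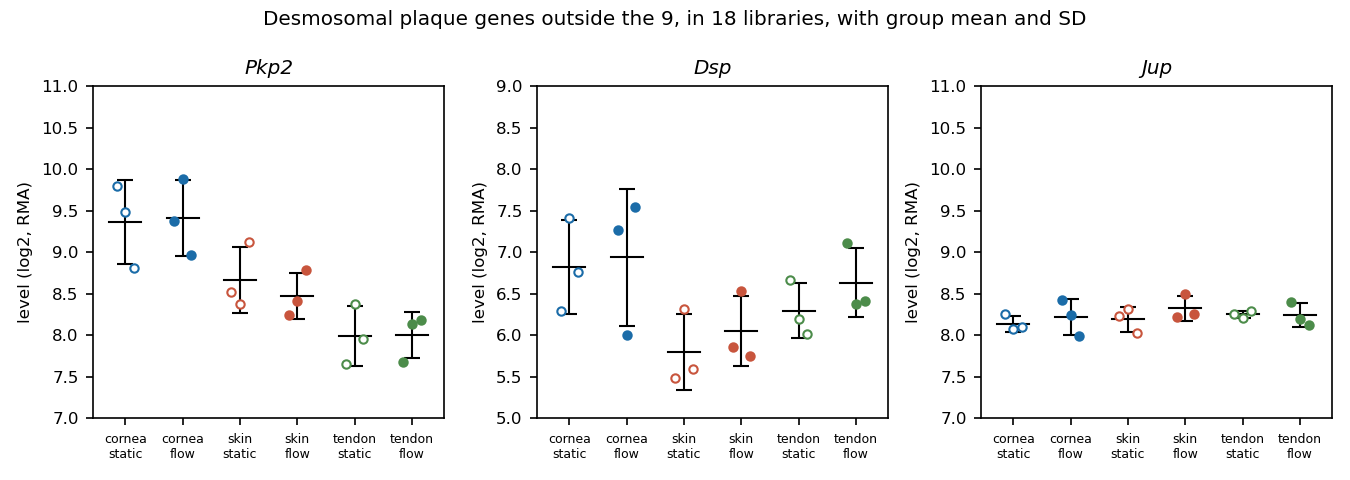
Log2 RMA levels (y axis, each spanning 4 units) of Pkp2, Dsp and Jup in the 6 groups on the x axis; points are libraries (open static, filled flow) and bars give the group mean and SD. Pkp2 falls from about 9.4 in cornea to about 8.0 in tendon, Dsp spreads within cornea from 6.00 to 7.54, and Jup stays between 7.99 and 8.50.

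Markers of other cell types were read beside the levels of Krt19 and Perp in cornea, in comparisons of static cells that called 2.47% of all genes between cornea and skin and 2.44% between cornea and tendon. Of 19 keratinocyte genes measured, 0 were called higher in static cornea than in tendon, 1 was lower (Sbsn, -2.08), and their mean per library was 5.83 to 5.98 in cornea, 5.80 to 6.11 in skin and 5.97 to 6.19 in tendon. Of 13 genes of the corneal and conjunctival epithelium, 2 were called higher in static cornea than in tendon: Clu (1.13) and Aldh3a1 (0.91), a crystallin of the cornea that is also made by its stromal cells. The defining Krt12 and Pax6 differed by 0.04 (95% interval -0.24 to 0.31) and -0.11 (-0.41 to 0.18). Of 7 corneal endothelium genes, 2 were called higher in static cornea than in tendon (Col8a1, 1.68, and Atp1b1, 0.83) and 0 than in skin. Against skin, 2086 of all 18193 genes had an unadjusted p below 0.05 (limma). So did 3 of the 7, and Col8a1 stood at 0.90 and Atp1b1 at -0.41. Their mean was 9.32 to 9.53 in cornea, 9.01 to 9.19 in skin and 8.56 to 8.81 in tendon. Col8a2, the widest-ranging of the 7, was called in no comparison. It read 5.87, 7.47 and 7.88 in static cornea and 6.82, 5.74 and 8.04 in cornea under flow. Its lowest corneal libraries, static replicate 1 and flow replicate 2, were also the lowest for Perp (9.21 and 8.88) and for Col8a1 (11.31 and 10.69). Atp1b1 stayed between 11.36 and 11.64 in cornea. Of 11 mesothelial genes, Bnc1 was lower in cornea (-2.76 against skin and -1.76 against tendon), and their mean was 5.72 to 6.03 in cornea, 6.13 to 6.20 in skin and 6.00 to 6.11 in tendon. Fibroblast genes called lower in static cornea than in skin were Thy1 (-1.60), Fap (-1.52) and Dcn (-1.07), and the mean of 13 was 10.95 to 11.37 in cornea and 11.40 to 11.75 in skin. The part of these cell types in the corneal levels was not tested.

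The same lists were read beside the fall of Krt19 with flow. Averaged over tissues, where limma called 0.896% of all genes, it called 0 of 19 keratinocyte, 7 corneal endothelium, 11 mesothelial, 13 fibroblast and 15 mesenchymal genes. Of these, 0, 1, 0, 1 and 3 had an unadjusted p below 0.05 (limma), beside 2045 of all 18193 genes. Of the 13 genes measured in the corneal epithelium list, 1 was called, Aldh3a1, which rose by 0.58 (SE 0.11, adjusted p = 0.021, limma), opposite to Krt19.

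Of 15 mesenchymal regulators, 3 were called between static cornea and skin, 4 between cornea and tendon and 2 between tendon and skin. In these comparisons 2.47%, 2.44% and 1.32% of all genes were called. Under flow, where 1.91%, 1.69% and 1.06% of all genes were called, 2, 2 and 0 of the 15 were. In the last, 3 had an unadjusted p below 0.05 (limma), beside 1204 of all 18193 genes. In static cornea minus skin and minus tendon, Twist2 stood at -2.14 and -1.51. Snai2 stood at -1.01 in static cornea minus tendon, and Foxc2 was higher in cornea by 1.14 and 1.06 against skin and tendon. Cdh2 (N-cadherin, the mesenchymal counterpart of Cdh1) was higher in static cornea than in skin by 1.02. Twist2 and Snai2 are repressors of Cdh1 in epithelial cells, and Cdh1 differed between static cornea and tendon by -0.06 (95% interval -0.26 to 0.14). Cdh1 read 3.50 to 4.03 in every library, far below the chip median of 7.25, so a difference could hardly show. Its repression was not tested.

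Likeness of pattern was described by Pearson's r over the 18 libraries, among 837 genes with an SD of at least 0.5; all points share the 6 groups, and r does not separate tissue, flow and library differences. Krt8, Krt18 and Krt19 did not vary together, so their mean is no shared pattern. Their r was -0.23 for Krt19 and Krt8, -0.28 for Krt19 and Krt18 and -0.46 for Krt8 and Krt18. Among all pairs of the 9 genes, r ran from -0.53 (Krt18 and Krt14) to 0.84 (Krt8 and Krt5). It was 0.8 for Krt8 and Krt14, 0.76 for Krt19 and Perp and 0.74 for Krt5 and Krt14. The genes most like the mean of the standardised levels of Krt8, Krt18 and Krt19 were Gata2 (0.748), Tgm2 (0.743), Lpp, Ptgis, Htra1, Celf2, Nr2f1 and Ankrd1 (0.662). Those most like the mean of Krt5 and Krt14 reached Fabp7 (0.575) to Slc5a3 (0.423), with Cdh19, Serpinb9g, L1cam, Ccl11, Ifngr2 and Hmcn1 between; Fabp7 differed between static tissues by -0.09 to 0.09 and under flow by -0.45. Chosen after values were seen, the genes most like Krt19 alone were Nid2 (0.903), Npr3 (0.885), Mmp16, Adgrl2, Osr1, Limch1, Ctnnd2 and Gnai1 (0.848). Npr3, the natriuretic peptide clearance receptor, had means of 9.45 and 8.40 in cornea, 6.56 and 5.87 in skin and 5.77 and 5.07 in tendon (static and flow), and Osr1 had 8.27 and 7.64, 7.73 and 6.85, and 7.09 and 6.44. Those most like Perp alone, chosen in the same way, were Tnfrsf11b (0.968), Bst1 (0.965), Igfbp2, Capn6, Nectin3, Nupr1, Col8a1 and Gnai1 (0.914). Nectin3 is itself a cell adhesion molecule of adherens junctions, with means of 10.29 in static cornea, 9.24 in static skin and 8.79 in static tendon.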

How the data were processed

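The deposited tables hold log2 values per probe set, made by the authors with RMA per the submitters' processing notes, for the MOE430A and MOE430B arrays; the sources used here give no genome build or further settings. The scanner records, used here for sample dates and batches, carried the date that pairs libraries, where one was given. Genes were named from the platform annotation (1 symbol for 20380 probe sets on the first chip and 14661 on the second, several for 936 and none for 9160), and each of 18193 genes was represented by its brightest probe set on chip A, or chip B where chip A had none, with cross-hybridising names used last; 18032 matched RefSeq. The members and lists were chosen with earlier results of these data known. limma 3.58.1 (R 4.3.3) was fitted per chip to all 6 groups with no covariate (12 residual degrees of freedom), and Benjamini-Hochberg adjustment ran over the 18193 p-values of each comparison, with a call below 0.05. The script was tested on simulated data. Array medians were 7.19 to 7.29 on chip A and 5.90 to 5.99 on chip B, and the number of arrays limits the precision.

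Genes outside the 9 were drawn by a rule, and not every gene that it allowed is named. The rule allowed up to 4 called genes per list and comparison, 5 fibroblast genes, the 2 widest-ranging genes of each list, and 8 genes per likeness. Lists for vessel endothelium, leukocytes, melanocytes and glia, skeletal muscle, cartilage and skin appendages were also run and are not described. Jup, Trp63, Krt12, Pax6, Esrp1, Grhl2, Klf4, Pkp1, Pkp3, Dsg2, Dsc2 and Dsc3 were added after values were seen. So were the likeness to Krt19 and Perp alone and the fit without the tendon flow libraries. The pairs, dated or not, deviated together from their group means (correlations of 0.38 to 0.76 in 8 of 8 pairs). The same replicate number gave -0.43 to 0.76, because corneal numbers cross the dates, so the date and not the number was taken as the pairing. Alternatives were a block by date, replicate number or batch, median centring, quantile normalization and a mean-variance trend. Others were leaving out dim probe sets, all probe sets and leaving out each library.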

Additional observations from a re-analysis of the deposited data

How the results depend on the processing

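Of 401 counts of called genes over the alternatives, 380 stayed within 1.5 times the reported count, and of 612 values for Krt19, Perp, Krt18 and Cdh1, 595 kept their direction and side of the threshold. The flow average of Krt19 was called under all alternatives run, with adjusted p-values of 0.00016 to 0.014 (limma), and ranged from -0.62 to -0.55 when each library was left out. With the sample date as a block, the counts of called genes among the 9 became 1 for flow in tendon and 1 for flow in skin, and 1 companion gene was called for the flow average; over all genes, the flow average then called 1273 in place of 163. The count between cornea and skin became 2 with a replicate block and with the date as a random block, in static cells and under flow, since Perp was then called. Over all genes those fits called 579 and 526 in static cells, in place of 449. Under flow they called 449 and 429, in place of 347. With dim probe sets left out Perp was also called under flow, where 303 of 11536 genes were. Leaving out each library gave 0 to 1 for flow in skin (1 without cornea flow replicate 2, where 10 of all genes were called) and 1 to 2 for cornea and skin in each state. Over all genes those refits called 231 to 497 between static cornea and skin and 210 to 384 under flow. For the companions, leaving out each library gave 1 to 3 for static cornea and skin, 2 to 3 for cornea and tendon and 0 to 1 for tendon and skin. Over all genes the refits called 311 to 647 between static cornea and tendon and 126 to 253 between static tendon and skin. With dim probe sets left out the companion counts were 1 for cornea and skin and 1 for cornea and tendon, where fewer genes were tested, and with all probe sets 1 was called for tendon and skin. Those fits called 387 and 407 of 11536 genes and 360 of 35041 probe sets. The flow difference of Perp, never called, changed sign in cornea without static replicate 2 (0.10) or flow replicate 2 (0.25) and in skin without static replicate 3 (0.05) or flow replicate 2 (0.00); its range was -0.46 to 0.25 in cornea and -0.41 to 0.05 in skin. The cause of these changes was not tested. Dim probe sets, which include 5 of the 9 genes, limit what small differences can be read, and Krt19 read below the chip median in skin and tendon.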

Other observations

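Sbsn (suprabasin, a protein of differentiating epidermis) was bright in these fibroblasts and highest in tendon, with means of 11.08 ± 0.58 in static tendon, 9.24 ± 0.15 in static skin and 9.0 ± 0.54 in static cornea (log2, SD, n = 3), while the keratinocyte gene Krt10 had means of 7.75 ± 0.36, 7.33 ± 0.16 and 7.54 ± 0.42. Klf5, an epithelial transcription factor, had the widest range of the companions (7.21 to 9.66), with static means of 8.10 in cornea, 8.05 in skin and 8.23 in tendon and flow means of 8.79, 8.28 and 8.91. Its average flow difference of 0.53 (95% interval 0.02 to 1.04) was not called (adjusted p = 0.42, limma), and its other probe sets gave -0.02 and -0.03. Tfap2a, of surface ectoderm and neural crest, ranged from 6.96 to 8.17.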
